A study of Mus musculus with 6 samples.

Results

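The 35 genes described here encode proteins that carry glucose into the muscle fibre, break it down to lactate, and store it as or release it from glycogen. They were chosen as a list of gene symbols, by a rule that sets no threshold on a measured value. The choice was made with earlier results of these data known. All 35 were present among the 21572 gene symbols of the tables, and all 35 were among the 12247 symbols with a mean FPKM (the authors' measure of level, scaled to transcript length and library size) of at least 0.5, which were tested. Polyadenylated RNA was sequenced from the soleus, a postural muscle of the hindlimb, of adult C57BL/6 mice in 6 libraries, 2 per group. The groups were innervated soleus of wild-type (WT) mice, soleus of WT mice after 3 days of denervation, and soleus of mice with the genotype Dach2-/-/Hdac9-/- after the same 3 days of denervation. Dach2 encodes a nuclear cofactor of transcription, and Hdac9 a deacetylase of the class II family. Innervated muscle of the knockout genotype was not analysed here, and the labels do not say how the nerve was removed, whether the libraries came from separate animals, or whether muscles were pooled, so p-values take as error only what separates the 2 libraries of a group, and that may be technical.

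Resting and contracting muscle takes up glucose through transporters in its surface membrane, phosphorylates it to keep it inside, and either splits it through glycolysis or adds it to glycogen. The mouse soleus mixes slow and fast fibres, of which the oxidative ones pass most pyruvate to mitochondria and the glycolytic ones make and export more lactate. Many steps have a form found mainly in muscle and another found in most tissues, so the levels of paired forms show which version of a step a muscle makes. The study's design asks which genes depend on Dach2 and Hdac9 after denervation.

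Libraries held 25529434 to 46305449 assigned fragments. Between the 2 libraries of each group, the correlation of log2 levels across genes was 0.988 for innervated WT, 0.966 for denervated WT and 0.982 for knockout muscle. The sample numbers form 2 runs, 14043 to 14045 and 14049 to 14051, each with 1 library per group, and in the WT comparison the log2 difference within each run is given for those of the 35 genes where the runs differ in sign or by over 1. Of the genes named as deleted, Dach2 was at 3.85 and 4.29 FPKM in the innervated pair, 0.520 and 0.536 in the denervated WT pair and 0.961 and 0.681 in knockout libraries. Hdac9 was at 4.10 and 3.14, then 1.83 and 0.285, then 0.534 and 0.182 FPKM. Dach2 was therefore not lower in the knockout libraries than in the WT libraries of the same treatment, a whole-gene value does not read the deleted part alone, and the group is called DKO-labelled. Muscle markers such as Ckm (3302 to 8812 FPKM) and Mb (3422 to 12666 FPKM) were high in every library, and innervated muscle held both slow myosin (Myh7 at 1176 and 1700 FPKM) and fast myosin (Myh2 at 1472 and 1514 FPKM). Acta1, the main muscle actin, is listed at 0 in all 6, which can be a failed estimate. The summed FPKM of 8 muscle fibre markers, that 0 included, was 30136 and 34851 in the innervated pair, 14082 and 13032 in the denervated WT pair and 11344 and 12080 in the DKO-labelled pair. Of the 7 of these tested, 4 were called lower and 0 higher on denervation in WT, and Des was at 2205 and 1945, then 2088 and 1863 FPKM. The summed FPKM of 7 fast fibre markers was 17798 and 18848, then 9035 and 9379, then 7770 and 6736. Among these 7, 3 were called lower and 1 higher in WT. The part of such shifts in the results below was not tested. In such bulk samples fewer cells of a type and less RNA per cell cannot be told apart.

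Promoter sequence is shown for the mutase and lactate dehydrogenase pairs, a choice from the paired forms that changed unequally. It is also shown for the transporter and glycogen-binding genes that rose, so that the letters can be set beside the changes below. Each line gives the 250 bases before an annotated start in RefSeq, 5′ to 3′ on the gene's strand. The build is GRCm38.p6, which differs from the mm9 of the deposited data. Ldha has 2 such starts, and the first is shown. Capitals mark matches on either strand of CANNTG (the E-box, bound by myogenic factors such as myogenin), ACGTG (the core of hypoxia response and related sites) and a loose form of the MEF2 site (CTA, any 4 bases, TAG). The regions are Slc2a1 chr4:119108495-119108744 (plus strand), Stbd1 chr5:92602801-92603050 (plus strand), Pgam2 chr11:5803797-5804046 (minus strand), Pgam1 chr19:41911621-41911870 (plus strand), Ldha chr7:46845554-46845803 (plus strand) and Ldhb chr6:142507958-142508207 (minus strand).
Slc2a1: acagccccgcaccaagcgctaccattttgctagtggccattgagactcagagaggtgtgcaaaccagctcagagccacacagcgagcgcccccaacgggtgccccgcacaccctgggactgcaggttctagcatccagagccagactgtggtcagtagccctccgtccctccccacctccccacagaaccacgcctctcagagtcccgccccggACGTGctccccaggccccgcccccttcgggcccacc
Stbd1: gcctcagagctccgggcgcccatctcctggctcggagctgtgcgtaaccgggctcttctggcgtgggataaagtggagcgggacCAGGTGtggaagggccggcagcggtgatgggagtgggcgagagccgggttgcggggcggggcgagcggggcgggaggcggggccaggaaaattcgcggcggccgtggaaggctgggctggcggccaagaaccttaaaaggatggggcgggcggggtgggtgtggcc
Pgam2: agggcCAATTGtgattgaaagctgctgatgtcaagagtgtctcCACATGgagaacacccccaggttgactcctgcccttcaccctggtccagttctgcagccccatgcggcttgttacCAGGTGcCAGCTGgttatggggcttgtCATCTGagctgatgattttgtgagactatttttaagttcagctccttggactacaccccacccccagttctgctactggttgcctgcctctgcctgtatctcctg
Pgam1: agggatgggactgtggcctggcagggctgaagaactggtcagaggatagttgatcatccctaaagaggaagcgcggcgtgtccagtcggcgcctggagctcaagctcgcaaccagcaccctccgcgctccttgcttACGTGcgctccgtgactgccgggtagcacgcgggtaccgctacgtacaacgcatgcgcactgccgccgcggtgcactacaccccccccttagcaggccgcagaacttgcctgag
Ldha: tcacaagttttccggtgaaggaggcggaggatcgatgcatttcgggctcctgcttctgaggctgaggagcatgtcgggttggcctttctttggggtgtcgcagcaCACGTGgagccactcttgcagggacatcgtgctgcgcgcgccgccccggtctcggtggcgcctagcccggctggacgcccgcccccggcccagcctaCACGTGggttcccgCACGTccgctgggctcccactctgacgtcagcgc
Ldhb: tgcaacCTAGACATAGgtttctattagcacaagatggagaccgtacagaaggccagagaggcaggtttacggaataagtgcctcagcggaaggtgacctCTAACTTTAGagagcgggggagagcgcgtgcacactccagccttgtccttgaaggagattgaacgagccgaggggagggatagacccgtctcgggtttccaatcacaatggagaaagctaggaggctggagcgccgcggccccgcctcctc

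In these windows Pgam2, the muscle form of phosphoglycerate mutase, held 5 CANNTG matches and Pgam1, the general form, held 0 and 1 ACGTG. The Ldha window shown held 2 CACGTG, a palindrome that contains both CANNTG and ACGTG, and 1 further ACGTG on the opposite strand. The window of the other Ldha start held 2 CANNTG and neither CACGTG nor ACGTG. Ldhb held 2 loose MEF2 matches and neither of the other motifs. Slc2a1 held 1 ACGTG and Stbd1 1 CANNTG. In families not printed, Eno3 held 1 CANNTG match, and the 3 starts of Eno1 held 2, 0 and 0. Pfkm held 3, 0, 1 and 1 at its 4 starts, Pfkl 3 and Pfkp 0. The table had entries for 34 of the 35 genes, with 50 annotated starts in all, and Slc2a4 is named only. Among these 50 starts, 74% held CANNTG, 36% ACGTG and 6% the loose MEF2 motif, against 66.2%, 16.6% and 3.2% of all 32851 promoters of the same length. By the change on denervation described next, ACGTG stood before 5 of 16 matched genes that fell, 1 of 4 that rose and 8 of 14 that did not pass the test. CANNTG stood before 14 of 16, 2 of 4 and 9 of 14 genes of these classes, and the loose MEF2 motif before 3 of 16, 0 of 4 and 0 of 14. These counts take a gene with a match before any of its starts. The percentages above are per start, so the counts cannot be set against them. A match describes letters and is not evidence of binding, and starts of 1 gene share sequence.

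The first comparison set the denervated against the innervated WT libraries. Of the 35 genes, 17 fell, 4 rose and 14 did not pass (edgeR quasi-likelihood test, Benjamini-Hochberg adjusted p under 0.05 over 12247 genes). Over all tested genes 14.3% fell and 14.4% rose. The median log2 change of the 35 genes was -0.78, beside 0.00 over all genes. By step, 1 of 4 uptake genes fell and 1 rose, 4 of 11 upper glycolysis genes fell and 1 rose, 3 of 6 lower glycolysis genes fell and 1 rose, 2 of 3 lactate genes fell, and 7 of 11 glycogen genes fell and 1 rose. The 4 that rose were Slc2a1, Pfkfb4, Eno1 and Stbd1. In FPKM the groups did not overlap for 25 genes that were lower and 6 that were higher, which over all genes is the case for 38.5% and 32.7%. Each of the 21 called genes had the same sign in both runs of sample numbers. The runs hold the same libraries as the test, which favours genes with like signs, so this is not separate support.

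The calls depended on having 2 innervated libraries. Without innervated WT replicate 1, 4 genes fell and 1 rose, and without replicate 2, 3 fell and 1 rose, while the calls over all genes went from 3512 to 468 and 202. Without denervated WT replicate 2, Pfkm, Gapdh, Pfkfb3 and Pfkfb4 no longer passed, and without replicate 1 Eno1 did not. Pfkfb3 and Pfkfb4 also did not pass without either DKO-labelled library, which enters that comparison only through the shared spread. A fit with the run of sample numbers as a replicate block called 21 genes lower and 6 higher, and the 6 genes it added are marked below by their adjusted p with the block. The changes of Pfkfb1, Tpi1, Ldhb and Stbd1 passed in all 15 alternative settings, 6 of which leave out a library. In the 9 others, 16 of the 21 calls were kept, and those lost in at least 1 of them were Pfkm, Pfkfb3, Pfkfb4, Gapdh and Eno1.

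**Figure D1:**
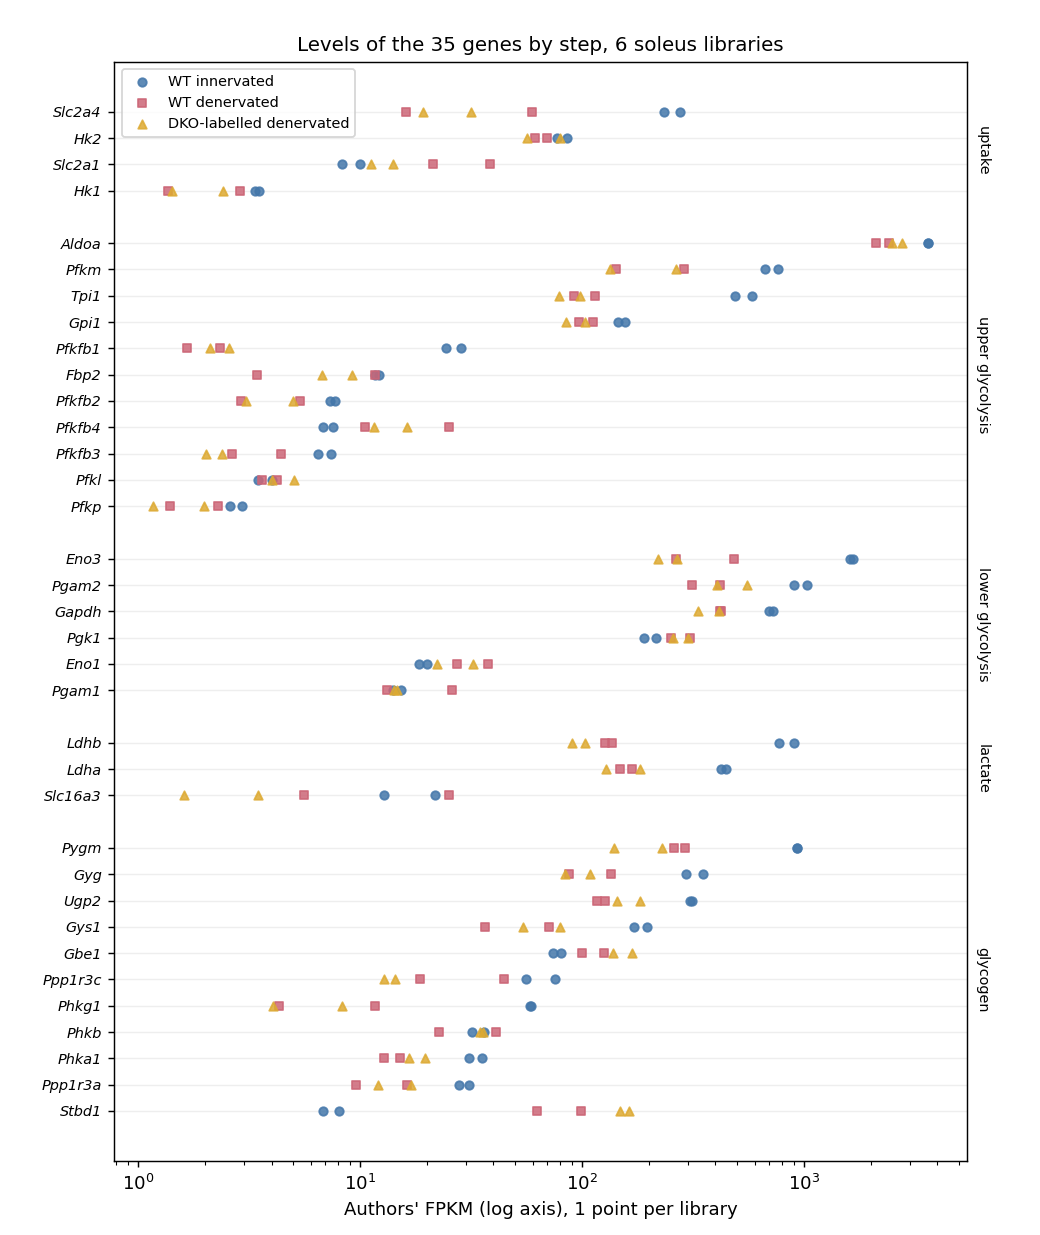
Levels of the 35 genes in each of the 6 libraries, in the authors' FPKM on a log axis, grouped by step and ordered by level in innervated WT muscle. Circles are innervated WT, squares denervated WT and triangles DKO-labelled denervated libraries; Stbd1 moves from 6.86 and 8.05 FPKM to 149 and 162 FPKM across the plot, while Pfkfb1 moves the other way.

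In innervated muscle the levels spanned from Aldoa, the aldolase of muscle glycolysis, at 3645 and 3613 FPKM to Pfkp, the platelet form of phosphofructokinase, at 2.94 and 2.59 FPKM. Eno3 and Pgam2 came next to Aldoa, and 15 genes were above 100 FPKM in both libraries, against 11 in each denervated group. The summed FPKM of the 35 genes was 12026 and 12676 in the innervated pair, 5920 and 5121 in the denervated WT pair and 6220 and 5287 in the DKO-labelled pair. Aldoa made up 30.3% and 28.5% of that sum in innervated WT and 40.8% and 41.2% in the denervated WT pair. Aldoa itself was at -0.59 ± 0.19 (log2 change ± SE), which did not pass (adjusted p = 0.0566, or 0.0293 with the replicate block).

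Glucose enters through Slc2a4, the transporter GLUT4 that moves to the surface on insulin or contraction, and Slc2a1, the widely expressed transporter GLUT1. Slc2a4 (chr11:69755787-69761692, mm9) was at 235 and 277 FPKM in the innervated pair, 59.5 and 16.2 in the denervated WT pair, and 31.7 and 19.3 in the DKO-labelled pair. Its denervated values lay far below the innervated ones but differed widely between the 2 WT libraries. It fell 6.45-fold (log2 -2.69 ± 0.59, adjusted p = 0.0203), by 1.93 in the earlier-numbered run and 4.01 in the later on the log2 scale. Fat cells also express Slc2a4, and 4 of 4 adipocyte markers fell, with summed FPKM of 274 and 205 in the innervated pair, 41.6 and 46.5 in the denervated WT pair and 70.0 and 30.3 in the DKO-labelled pair. The part of these cells in the Slc2a4 values was not tested.

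Slc2a1 (chr4:118781349-118809934) was at 8.29 and 10.03 FPKM in the innervated pair, 21.4 and 38.5 in the denervated WT pair and 11.2 and 14.1 in the DKO-labelled pair. Both denervated WT libraries were above every other library. The rise in WT was 3.46-fold (log2 1.79 ± 0.31, adjusted p = 0.0101). Slc2a4 held 96.6% and 96.5% of the summed FPKM of both transporters in innervated WT, 73.6% and 29.6% in the denervated WT pair, and 73.9% and 57.8% in the DKO-labelled pair. GLUT1 is also made by endothelium, and of 5 endothelial markers 4 fell and 0 rose on denervation, with summed FPKM of 85.5 and 97.2 in the innervated pair, 44.2 and 38.9 in the denervated WT pair and 46.6 and 30.5 in the DKO-labelled pair; their part in the Slc2a1 values was not tested.

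Hexokinases trap glucose inside the cell by phosphorylating it. Hk2, the main muscle form, was at 77.3 and 86.1 FPKM in the innervated pair, 61.7 and 69.6 in the denervated WT pair and 80.2 and 56.7 in the DKO-labelled pair, at -0.26 ± 0.21 in the WT comparison (adjusted p = 0.372). Hk1, the form of most tissues, was at 3.38 and 3.50, then 2.88 and 1.36, then 2.41 and 1.43 FPKM (-0.62 ± 0.40, adjusted p = 0.271, runs at -0.17 and -1.26). Neither passed the test, and Hk2 held 95.5% to 98.1% of their sum in the 6 libraries.

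Phosphofructokinase commits sugar to glycolysis, and its muscle form Pfkm was at 671 and 763 FPKM in the innervated pair, 290 and 142 in the denervated WT pair and 264 and 135 in the DKO-labelled pair. It fell 3.14-fold (log2 -1.65 ± 0.43, adjusted p = 0.0319, runs at -1.14 and -2.33), and quantile-normalized limma did not call it. The liver form Pfkl was at 3.47 and 4.04 FPKM, then 4.24 and 3.64, then 5.06 and 4.01 (0.15 ± 0.20, adjusted p = 0.583, runs at 0.36 and -0.05). Pfkp was at 2.94 and 2.60 FPKM, then 2.30 and 1.40, then 1.99 and 1.17 (-0.53 ± 0.34, adjusted p = 0.270). Pfkm held 99.0% and 99.1% of the family's FPKM in the innervated pair, 97.8% and 96.6% in the denervated WT pair and 97.4% and 96.3% in the DKO-labelled pair.

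The Pfkfb genes encode enzymes that make and remove a sugar bisphosphate that activates phosphofructokinase, and the 4 genes did not move alike. Pfkfb1 (chrX:147024463-147078403), the form of liver and muscle, was at 28.6 and 24.6 FPKM in the innervated pair, 2.34 and 1.66 in the denervated WT pair and 2.57 and 2.11 in the DKO-labelled pair. It fell 12.7-fold (log2 -3.66 ± 0.25, adjusted p = 0.00176), the largest decrease among the 35 genes. Pfkfb4 was at 7.54 and 6.86 FPKM in the innervated pair, 10.5 and 25.2 in the denervated WT pair and 11.6 and 16.3 in the DKO-labelled pair. It rose 2.63-fold (log2 1.40 ± 0.41, adjusted p = 0.0457), by 0.55 in the earlier-numbered run and 1.97 in the later, and the call was lost in the limma fits, at a mean FPKM of at least 2, when only the 4 WT libraries were fitted, and in 5 of 6 fits that leave out a library.

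Pfkfb3, the inducible form of many tissues, was at 7.40 and 6.46 FPKM in the innervated pair, 4.41 and 2.64 in the denervated WT pair and 2.39 and 2.04 in the DKO-labelled pair, a 1.91-fold fall in WT (log2 -0.94 ± 0.26, adjusted p = 0.0399). That call was lost when only the 4 WT libraries were fitted. Pfkfb2 was at 7.70 and 7.32, then 5.40 and 2.90, then 4.998 and 3.07 FPKM and did not pass (-0.78 ± 0.33, adjusted p = 0.120, or 0.0294 with the replicate block). As shares of the 4 genes' FPKM, Pfkfb1 was at 55.8% and 54.3% in the innervated pair and 10.3% and 5.13% in the denervated WT pair, while Pfkfb4 was at 14.7% and 15.2% and then 46.4% and 77.7%. In DKO-labelled libraries Pfkfb4 held 53.8% and 69.4%.

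Tpi1 (chr6:124758958-124764314), the isomerase that interconverts the 2 triose phosphates, was at 489 and 584 FPKM in the innervated pair, 115 and 91.9 in the denervated WT pair and 97.6 and 78.9 in the DKO-labelled pair. It fell 4.92-fold (log2 -2.30 ± 0.21, adjusted p = 0.00246). The steps next to it changed less, with Aldoa at -0.59 ± 0.19 and Gapdh at -0.66 ± 0.17. Further up the route, Pfkm was at -1.65 ± 0.43. Before it, Gpi1, the hexose phosphate isomerase, was at -0.46 ± 0.17 (adjusted p = 0.0864, or 0.0428 with the replicate block). The Aldoa to Tpi1 ratio of FPKM was 7.45 and 6.19 in the innervated pair, 21.0 and 23.0 in the denervated WT pair and 28.4 and 31.8 in the DKO-labelled pair. Fbp2, the muscle fructose bisphosphatase that runs the committed step backwards, was at 11.7 and 12.2 FPKM, then 3.42 and 11.7, then 9.18 and 6.78 (-0.60 ± 0.52, adjusted p = 0.409, runs at -1.71 and 0.01), and its spread lay in the denervated WT pair.

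**Figure D2:**
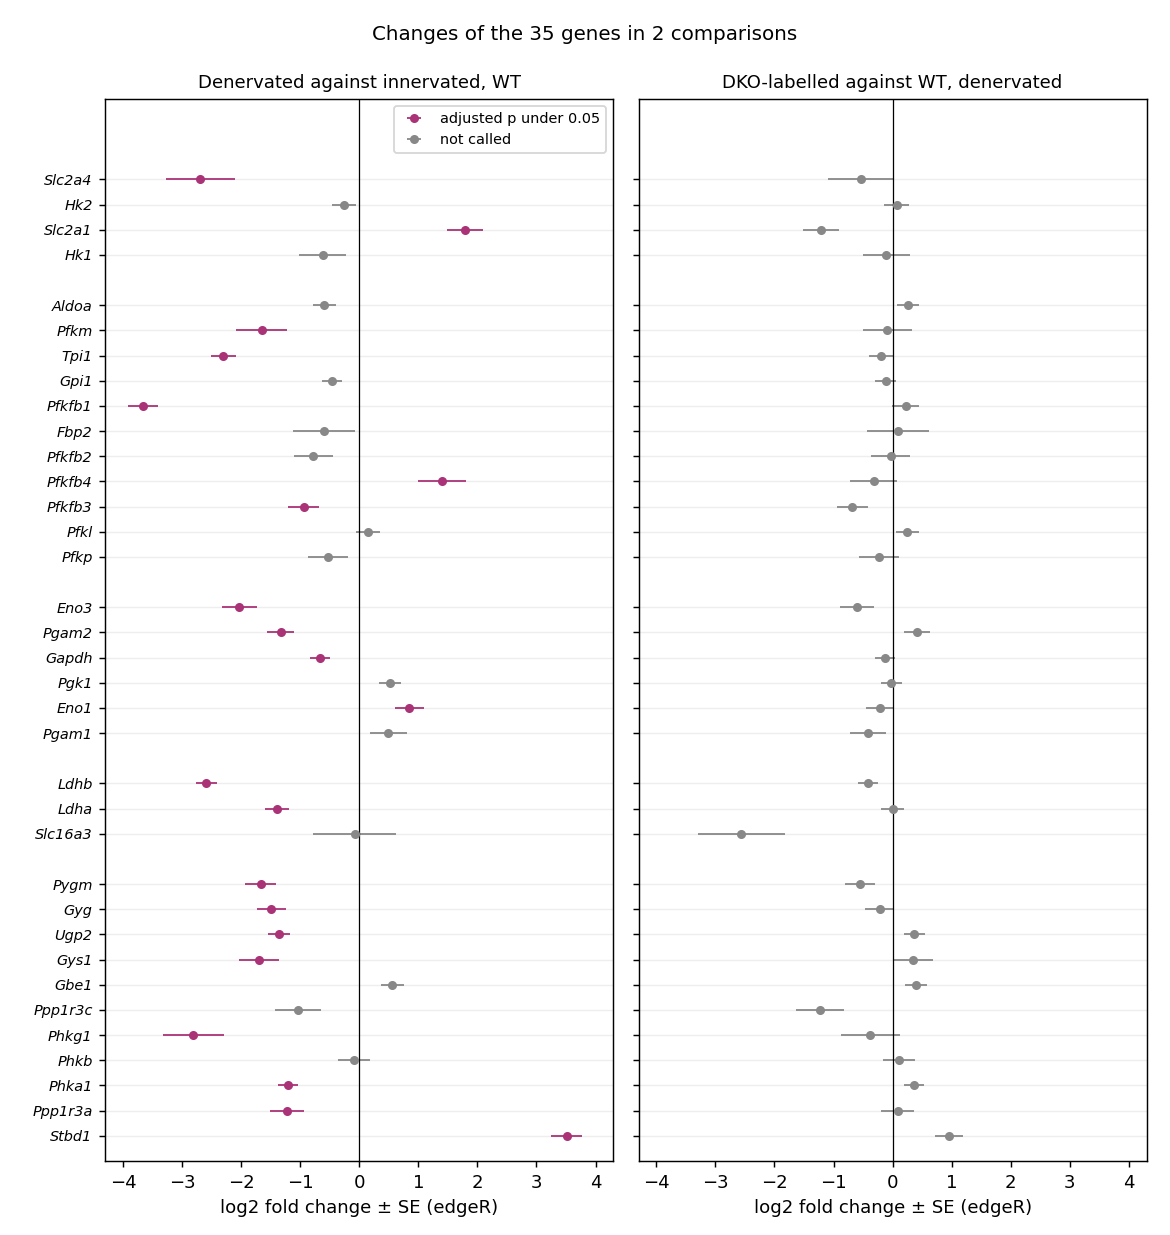
Log2 fold change ± SE from edgeR for each of the 35 genes, in the order of the plot of levels. The left panel compares denervated with innervated WT muscle, where 17 genes fell and 4 rose, and the right panel DKO-labelled with WT muscle, both denervated, where none of the 35 passed.

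Below the triose phosphates the enzymes did not move as a block. Gapdh, which oxidises glyceraldehyde phosphate and is widely used as a reference gene, was at 726 and 695 FPKM in the innervated pair, 420 and 424 in the denervated WT pair and 416 and 335 in the DKO-labelled pair. It fell 1.58-fold (log2 -0.66 ± 0.17, adjusted p = 0.0305), and quantile-normalized limma did not call it. Pgk1, the next enzyme and the first to yield ATP, was at 190 and 215 FPKM in the innervated pair, 253 and 308 in the denervated WT pair and 257 and 301 in the DKO-labelled pair. Every denervated library was above both innervated ones, yet at 0.52 ± 0.18 Pgk1 did not pass (adjusted p = 0.0758, or 0.0318 with the replicate block). The Pgk1 to Gapdh ratio of FPKM was 0.261 and 0.309 in the innervated pair, 0.602 and 0.725 in the denervated WT pair and 0.618 and 0.900 in the DKO-labelled pair.

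For mutase and enolase the muscle form fell, while the general form rose (Eno1) or did not pass (Pgam1). Pgam2 was at 906 and 1034 FPKM in the innervated pair, 417 and 313 in the denervated WT pair and 553 and 406 in the DKO-labelled pair, a 2.52-fold fall in WT (log2 -1.33 ± 0.23, adjusted p = 0.00996). Pgam1 was at 15.3 and 14.1, then 13.3 and 26.1, then 14.8 and 14.2 FPKM (0.49 ± 0.31, adjusted p = 0.264, runs at -0.15 and 0.96), with only denervated WT replicate 2 standing above the others. Eno3, the muscle enolase, was at 1608 and 1665 FPKM in the innervated pair, 486 and 266 in the denervated WT pair and 268 and 221 in the DKO-labelled pair and fell 4.08-fold (log2 -2.03 ± 0.30, adjusted p = 0.00703). Eno1, the enolase of most tissues, was at 20 and 18.4 FPKM, then 37.8 and 27.3, then 32.4 and 22.3.

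Eno1 rose 1.804-fold (log2 0.85 ± 0.24, adjusted p = 0.0407), lost in the limma fits and at a mean FPKM of at least 2. The muscle form still held most of each pair: Pgam2 had 98.3% and 98.7% of its pair in innervated WT against 96.9% and 92.3% in the denervated WT pair, and Eno3 98.8% and 98.9% against 92.8% and 90.7%. Processed copies of Gapdh, Pgk1, Tpi1, Aldoa, Eno1, Pgam1 and Ldha exist in the mouse genome, and how the authors assigned fragments that match several copies is not stated, so these levels are uncertain.

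Lactate dehydrogenase joins pyruvate and lactate, with Ldha encoding the subunit of fast muscle and Ldhb that of heart and oxidative fibres. Ldhb (chr6:142438768-142456463) was at 770 and 902 FPKM in the innervated pair, 128 and 136 in the denervated WT pair and 90.1 and 103 in the DKO-labelled pair, and fell 6.02-fold (log2 -2.59 ± 0.18, adjusted p = 0.00176). Ldha was at 425 and 446 FPKM, then 168 and 148, then 183 and 129, and fell 2.62-fold (log2 -1.39 ± 0.20, adjusted p = 0.00677). Both fell, and because Ldhb fell further, Ldha went from 35.5% and 33.1% of the pair's FPKM in the innervated pair to 56.8% and 52.1% in the denervated WT pair, with 67.0% and 55.6% in the DKO-labelled pair.

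The isoform shares were compared in 7 families and 10 shares over the 3 comparisons. With 2 libraries against 2, the smallest p that an exact permutation test, two-sided, can give is 0.333, so no share can pass a threshold of 0.05. On denervation of WT muscle the FPKM shares of Slc2a4, Pfkm, Pfkfb1, Pfkfb4, Pgam2, Eno3 and Ldha separated completely, at that smallest p of 0.333. Those of Hk2, Pfkfb2 and Pfkfb3 did not. The Pfkfb shares come from the same sum and so depend on each other. As shares of fragments instead of FPKM, which weights longer transcripts, Pfkfb1 was at 30.4% in innervated and 3.28% in denervated WT muscle, and Ldha at 38.9% and 59.2%, as means. By fragments the Pfkfb3 share separated too, at 24.36% and 23.73% in the innervated pair and 23.66% and 11.07% in the denervated WT pair.

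**Figure D3:**
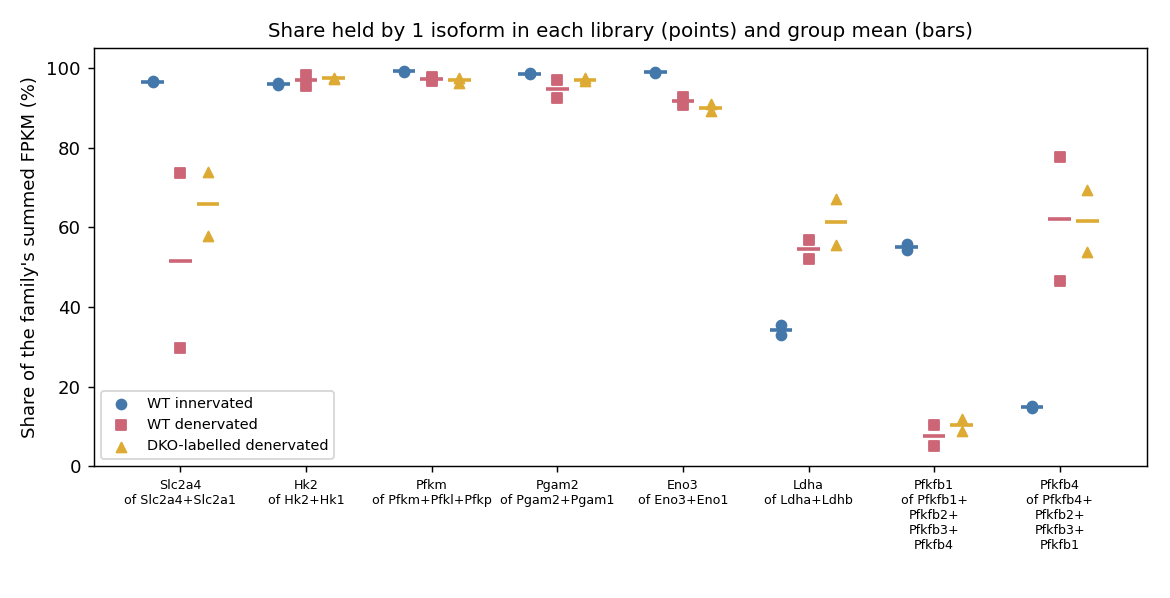
Share of a family's summed FPKM held by the named isoform, in percent, for each library (points) and as a group mean (bars). Slc2a4 and Pfkfb1 drop and Pfkfb4 and Ldha climb from innervated to denervated muscle, while Hk2 stays between 95.5% and 98.1%.

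Slc16a3 encodes MCT4, which exports lactate from glycolytic fibres. It was at 12.8 and 21.8 FPKM in the innervated pair, 5.61 and 25.1 in the denervated WT pair and 3.47 and 1.61 in the DKO-labelled pair. The denervated WT pair spans the innervated values, and the WT change was -0.08 ± 0.70 (adjusted p = 0.942), at -1.12 in the earlier-numbered run and 0.31 in the later. Neutrophils and macrophages can also express it. The summed FPKM of 4 neutrophil markers was 4.85 and 12.9 in the innervated pair. It was 30.1 and 71.7 in the denervated WT pair and 92.9 and 121 in the DKO-labelled pair. S100a8 made up most of that sum in the denervated libraries but not in the innervated pair (2.16 and 5.72 FPKM). Mpo was at or near 0 throughout. The summed FPKM of 8 macrophage markers was 213 and 121, then 240 and 194, then 244 and 142. Lyz2 made up most of that sum in every library, at 171.8 and 93.03, then 180 and 139.3, then 146.7 and 77.77 FPKM. Cd68 was at 13.07 and 8.38, then 24.92 and 35.45, then 52.77 and 46.39 FPKM. On denervation in WT, 1 of the 8 macrophage markers was called higher and 0 lower. The part of either cell type in the Slc16a3 values was not tested.

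Of the 4 genes of glycogen breakdown, 3 fell on denervation and Phkb did not pass. Pygm, the muscle phosphorylase that releases glucose units, was at 934 and 930 FPKM in the innervated pair, 292 and 260 in the denervated WT pair and 229 and 140 in the DKO-labelled pair, and fell 3.18-fold (log2 -1.67 ± 0.26, adjusted p = 0.00775). Of the phosphorylase kinase subunits, Phkg1, the muscle catalytic subunit, was at 58.5 and 58.8 FPKM in the innervated pair, 11.8 and 4.32 in the denervated WT pair and 8.28 and 4.05 in the DKO-labelled pair, and fell 6.99-fold (log2 -2.81 ± 0.52, adjusted p = 0.0128, runs at -2.27 and -3.69). Phka1, the muscle alpha subunit, was at 30.9 and 35.6 FPKM, then 15.1 and 12.9, then 19.8 and 16.6, and fell 2.31-fold (log2 -1.21 ± 0.17, adjusted p = 0.00617). Phkb, the beta subunit shared by all tissues, was at 31.9 and 36.3 FPKM, then 40.9 and 22.7, then 35.9 and 34.7 (-0.09 ± 0.27, adjusted p = 0.823, runs at 0.36 and -0.65). The remaining subunits are on the wider list described below and were named after their values were seen. Phka2, the alpha subunit of liver, was at 2.80 and 2.47 FPKM in the innervated pair, 8.05 and 8.37 in the denervated WT pair and 7.33 and 6.83 in the DKO-labelled pair, and rose 3.26-fold (log2 1.70 ± 0.16, adjusted p = 0.00251). Phkg2, the catalytic subunit of liver and testis, was at 0.22 ± 0.17 (adjusted p = 0.352).

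Of the 4 genes of synthesis, 3 fell and Gbe1 did not pass. Gys1, the muscle glycogen synthase, was at 171 and 198 FPKM in the innervated pair, 70.9 and 36.5 in the denervated WT pair and 79.6 and 54.4 in the DKO-labelled pair, and fell 3.24-fold (log2 -1.70 ± 0.34, adjusted p = 0.0163, runs at -1.20 and -2.34). Gyg, glycogenin, which primes the chain, was at 294 and 353 FPKM, then 135 and 87.9, then 109 and 84.2 (2.81-fold lower, adjusted p = 0.00996). Ugp2, which makes the activated sugar UDP-glucose, was at 309 and 313 FPKM, then 117 and 127, then 184 and 144 (2.56-fold lower, adjusted p = 0.00571). Gbe1, the branching enzyme, was at 74.1 and 80.9 FPKM in the innervated pair, 100 and 126 in the denervated WT pair and 138 and 168 in the DKO-labelled pair. It lay above innervated muscle in all 4 denervated libraries but did not pass in the WT comparison (0.56 ± 0.19, adjusted p = 0.0686, or 0.029 with the replicate block).

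Stbd1 (chr5:93032076-93035605), a protein that binds glycogen and links it to the autophagy machinery, showed the largest increase of the 35 genes. It was at 6.86 and 8.05 FPKM in the innervated pair, 62.8 and 99.1 in the denervated WT pair and 162 and 149 in the DKO-labelled pair, and no group overlapped another. The rise in WT was 11.4-fold (log2 3.51 ± 0.26, adjusted p = 0.00177). Relative to Gys1, Stbd1 FPKM was 0.0400 and 0.0408 in the innervated pair, 0.886 and 2.71 in the denervated WT pair and 2.04 and 2.74 in the DKO-labelled pair. Of the 2 subunits that bring a protein phosphatase to glycogen, Ppp1r3a was at 31.1 and 27.9 FPKM, then 16.3 and 9.56, then 17.0 and 12.1, and fell 2.32-fold (log2 -1.22 ± 0.29, adjusted p = 0.0247). Ppp1r3c was at 56.2 and 75.9 FPKM in the innervated pair, 18.7 and 44.5 in the denervated WT pair and 12.9 and 14.4 in the DKO-labelled pair, at -1.03 ± 0.39 in WT (adjusted p = 0.0925, or 0.0233 with the replicate block).

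A wider list held 73 other genes of glucose use, of which 62 were tested. In WT muscle 18 of them fell, 7 rose and 37 did not pass on denervation, with a median log2 change of -0.40, where 14.3% of all tested genes fell, 14.4% rose and the median was 0.00. The called genes of largest change were Tbc1d4, which holds GLUT4 vesicles inside the cell until insulin acts (15.7 and 12.7 FPKM in the innervated pair, 2.02 and 0.696 in the denervated WT pair, 10.1-fold lower), Pck1 (7.59-fold lower), the insulin receptor substrate Irs1 (4.43-fold lower), the glucose-sensing arrestin Txnip (4.24-fold lower), the pyruvate dehydrogenase kinase Pdk4 (3.26-fold lower) and Pgd. Pgd, an enzyme of the pentose phosphate route, was at 12.4 and 11.9 FPKM in the innervated pair and 33.9 and 56.2 in the denervated WT pair and rose 3.90-fold (log2 1.96 ± 0.31, adjusted p = 0.00781). Fat cells also express Pck1 and Irs1, and the fall of the adipocyte markers given above stands beside these values too. The genes were grouped into 3 branches after their values were seen. The counts therefore only describe these genes, and setting them beside the shares of all genes is not a test. Of 8 pentose phosphate genes 3 rose (Pgd, Taldo1 and H6pd) and 0 fell. Of 12 genes of pyruvate dehydrogenase, its kinases and phosphatases and the pyruvate carrier, 9 fell and 0 rose. The fallen genes included the kinases Pdk1, Pdk2 and Pdk4 as well as subunits of the enzyme itself. Of 7 genes of insulin signalling and transporter traffic, 3 fell and 2 rose (Tbc1d1 and Akt2). The final enzyme of glycolysis, pyruvate kinase, listed as Pkm2 and named outside the rule to complete the route, was at 489 and 583 FPKM in the innervated pair, 655 and 672 in the denervated WT pair and 972 and 866 in the DKO-labelled pair (0.41 ± 0.18 in WT, adjusted p = 0.129).

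The second comparison asked whether the 35 genes differ between DKO-labelled and WT soleus when both are denervated. None passed edgeR's test (0 higher and 0 lower), where 0.0245% of all genes were higher and 0.0163% lower, or 3 and 2 genes. The smallest adjusted p among the 35 was 0.437. At an unadjusted p under 0.05 there were 6, with 5 lower and 1 higher, beside 6.11% of all genes (3.45% lower and 2.65% higher). The median log2 difference of the 35 genes was -0.11, beside -0.02 over all genes. FPKM of the groups did not overlap for 7 genes that were lower and 5 that were higher in the DKO-labelled pair, where 15.1% and 14.7% of all genes separate in those directions. For the 29 genes with an unadjusted p of 0.05 or more, differences ran from -0.60 for Eno3 to 0.42 for Pgam2, with SEs of 0.17 to 0.56.

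Of the 6 genes, 3 had lower levels in DKO-labelled muscle by more than 2-fold in the fitted value. Slc16a3 was at -2.56 ± 0.74 (adjusted p = 0.549), but by -0.65 in the earlier-numbered run and -3.93 in the later, since denervated WT replicate 2 held 25.1 FPKM and replicate 1 5.61. Slc2a1, which had risen on denervation in WT, was at -1.21 ± 0.30 (adjusted p = 0.437), with -0.89 and -1.41 in the runs. Ppp1r3c was at -1.23 ± 0.40 (adjusted p = 0.636), with -0.56 and -1.65. DESeq2 called Slc16a3 (-2.59 ± 0.64, adjusted p = 0.00678) and Slc2a1 (-1.22 ± 0.34, adjusted p = 0.0268), 2 of the 35, where it called 0.841% of all genes lower. Without denervated WT replicate 1, which leaves 1 library in that group, the edgeR differences were -3.27 for Slc16a3, -1.57 for Slc2a1 and -1.73 for Ppp1r3c.

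The other 3 were Pfkfb3 at -0.68 ± 0.26 (adjusted p = 0.778), Ldhb at -0.42 ± 0.17 (adjusted p = 0.796) and Stbd1, the single gene of the 6 that was higher, at 0.95 ± 0.24 (adjusted p = 0.444). Stbd1 was higher in the DKO-labelled pair by 1.37 in the earlier-numbered run and 0.60 in the later. None of these 3 was called in any of the 15 alternatives. In the wider list, 0 of 62 genes passed in either direction and 5 had an unadjusted p under 0.05. Marker lists of the other cell types of a muscle also had 0 genes called in this comparison, and the median log2 difference of the 3 tested neutrophil markers was 0.12. Of these, S100a8 was at 25.2 and 57.9 FPKM in the denervated WT pair and 86.1 and 119 in the DKO-labelled pair, while S100a9 was at 4.42 and 13.4, then 5.96 and 2.39, and Csf3r at 0.452 and 0.417, then 0.763 and 0.167.

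**Figure D4:**
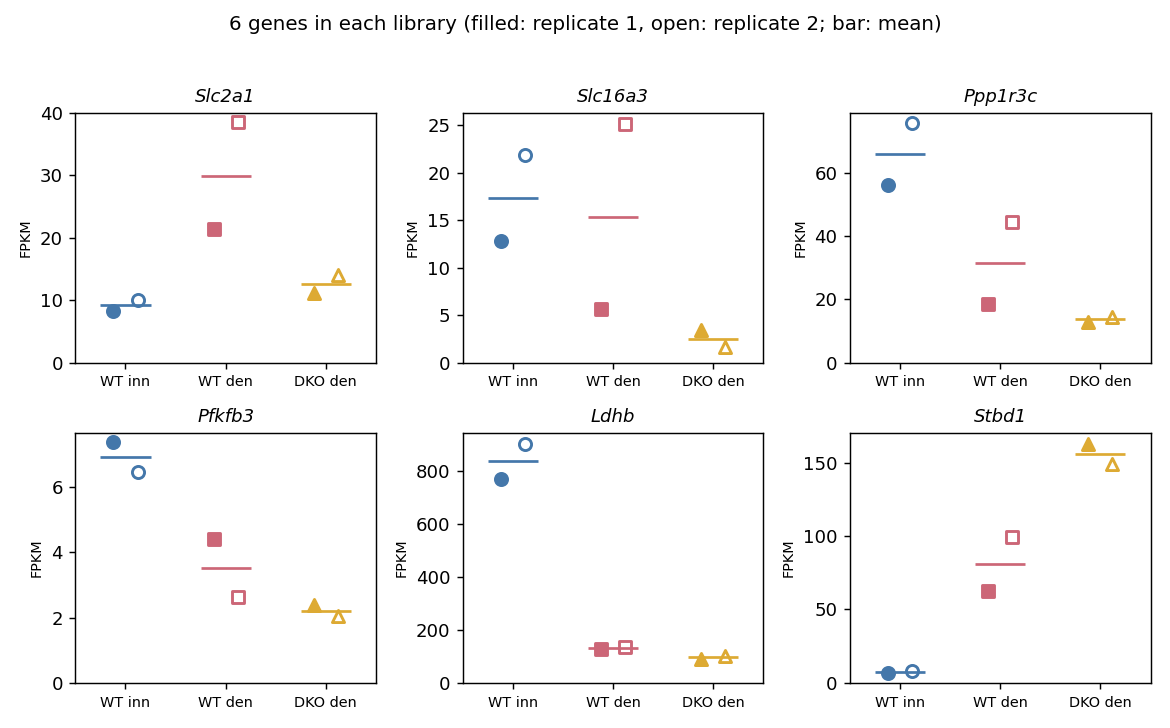
FPKM in each library of the 6 genes with an unadjusted p under 0.05 between DKO-labelled and WT denervated muscle, with filled symbols for replicate 1, open symbols for replicate 2 and bars for means. Slc2a1, Slc16a3 and Ppp1r3c have denervated WT replicate 2 at 38.5, 25.1 and 44.5 FPKM, above replicate 1, and both DKO-labelled libraries below both; none of the 6 passed after adjustment.

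Denervated DKO-labelled muscle was also set against innervated WT muscle, a comparison that differs in both nerve and genotype and shares the innervated libraries with the first. There 20 of the 35 genes were lower, 2 were higher and 13 did not pass, where 16.2% of all genes were lower and 15.2% higher, and the median log2 difference was -0.85. The 2 higher genes were Stbd1 (21.9-fold, log2 4.46 ± 0.28, adjusted p = 0.000968) and Gbe1 (1.94-fold, log2 0.96 ± 0.19, adjusted p = 0.0134). Slc2a1, at 0.59 ± 0.30 (adjusted p = 0.178), Pfkfb4, at 1.07 ± 0.40 (adjusted p = 0.0866), and Eno1, at 0.64 ± 0.24 (adjusted p = 0.0849), did not pass. Slc16a3 was 6.23-fold lower (adjusted p = 0.0391) and Ppp1r3c 4.81-fold lower (adjusted p = 0.00991). Lower counts came to 9 and 5 without innervated WT replicate 1 or 2, and to 7 without DKO-labelled replicate 2, and the higher count was 4 with the replicate block.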

How the data were processed

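Each of the 6 tables lists every gene 3 times, and 1 copy was kept. Per the file headers, the authors' columns are FPKM, a signal of externally scaled fragments (in each library the raw fragments times 1 factor) and raw fragments, which are estimated counts, 88.4% to 89.0% of them whole within 1e-06. The submitters' processing notes list, in alphabetical order, Bowtie2 2.0.0.7, CASAVA 1.8.2, Cuffdiff 2.0.2, TopHat2 2.0.3 and Trim Galore 0.2.1, and the genome build mm9. For annotation, strand setting and multiply matching fragments, the method is not given in the sources used here. The library factor ran from 0.6643 to 1.5641, and FPKM carry it, so they are levels per length on the authors' scale.

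Groups come from the sample titles, and replicates were numbered in accession order. The deposited estimated counts were rounded and tested with edgeR 4.0.16 (R 4.3.3; quasi-likelihood, TMM, 1 fit of 6 libraries, 3 residual degrees of freedom, symbols of mean FPKM of at least 0.5), two-sided, adjusted over 12247 symbols by Benjamini-Hochberg, with the threshold at 0.05. The SE is the log2 change divided by the square root of F. Alternatives used DESeq2 1.42.0, limma 3.58.1 on log2(FPKM + 0.5) or log2(FPKM + 1), other scalings, filters and subsets, and each library left out. Differences within a run of sample numbers use log2 counts scaled to library size. The genes and lists were chosen with earlier results of these data known. Every one of the 35 genes is accounted for; values per library are given for called genes and isoform families, and of the wider list the 6 called genes of largest change are named.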

Additional observations from a re-analysis of the deposited data

How the results depend on the processing

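For the WT comparison, lower counts ran from 3 to 20 and higher counts from 1 to 6 over the fits that leave out 1 library, against 17 and 4 with all. The higher count was 2 in limma with a pseudocount of 0.5, 2 with a pseudocount of 1 and 2 at a mean FPKM of at least 2. Between DKO-labelled and WT denervated muscle, the lower count of 0 became 2 in DESeq2 and ran from 0 to 3 with 1 library left out. For denervated DKO-labelled against innervated WT, lower counts ran from 5 to 21 and higher counts from 1 to 6 with 1 library left out; the higher count of 2 became 4 in quantile-normalized limma, 4 with no filter, 6 in the fit of 4 libraries and 4 with the replicate block. Signs that turned were all of genes that did not pass in WT. With 1 library left out, log2 changes ran from -1.75 to 0.02 for Fbp2, -1.54 to 0.63 for Slc16a3 (0.34 without innervated WT replicate 2), -0.08 to 0.89 for Pgam1 and -0.58 to 0.27 for Phkb, with the ends in the fits without 1 or the other denervated WT library. Aldoa was at 0.27 in quantile-normalized limma. The cause was not tested. The labels give no replicate numbers. With the runs of sample numbers as a replicate block, 21 genes fell and 6 rose in WT. That fit called 4461 of all genes, against 3512 without the block. Deviations of the libraries of a run correlated at 0.14 to 0.43 between groups. Leaving out a library leaves an arm with 1 sample, assumed to vary like the others. Every library held at least 25529434 fragments, and 2 libraries a group limit the precision.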
